A study of Mus musculus with 5 samples.

Results

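Glycogen synthesis and breakdown were examined through 9 genes, chosen by name, and all 9 were found among the 17015 genes of the table. They are Gys1, Gyg, Gbe1 and Ugp2, which build glycogen, Pygm, Phka1 and Phkg1, which break it down, and Ppp1r3a and Ppp1r3c, which steer a phosphatase to it. The data are RNA-seq values from whole tibialis anterior (TA), a fast-twitch leg muscle, of male mice at 8 weeks of age. There are 3 libraries labelled WT control and 2 labelled skmNrip1-/- (Ctrl and Nrip1KO in the sample titles), fewer of the latter than the mice named in the study's legend; any further library was not analysed here. By the study's methods, mice of both groups come from a C57BL/6J line with loxP sites around the coding exon of Nrip1, crossed to C57BL/6JN Cre mice. The WT control animals are their littermates without Cre. In the skmNrip1-/- animals, a myogenin promoter drives Cre in skeletal muscle, so other cells of the tissue keep the gene. Nrip1 encodes RIP140, a nuclear receptor coregulator.

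Glycogen is the glucose store that fast-twitch fibers draw on at the start of work. UDP-glucose pyrophosphorylase makes the activated glucose, glycogenin primes a particle, glycogen synthase lengthens its chains and the branching enzyme adds branches. Glycogen phosphorylase releases glucose 1-phosphate from chain ends, and phosphorylase kinase switches it on when calcium or adrenaline signals arrive. Protein phosphatase 1, held on the particle by targeting subunits, reverses this by switching synthase on and phosphorylase off.

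The question was whether the levels of these genes differ between muscle labelled skmNrip1-/- and WT control. None of the 9 was called as changed. The level of Pygm was lower in both libraries labelled skmNrip1-/- than in every WT control library, and so was that of Phka1. The levels of Gys1, Gbe1 and Ppp1r3a were higher in both, Gys1 only just (194 against 193 at the nearest). Those of Gyg, Ugp2, Phkg1 and Ppp1r3c overlapped between the groups. Groups that did not overlap were common, at 30.2% of all genes tested. Levels are in FPKM, a count of fragments per length of transcript that the authors scaled by library, and each fold change comes from limma on log2(FPKM + 0.1). A gene was called at a Benjamini-Hochberg adjusted p of 0.05 or less over the 12148 genes tested and a fold change of at least 1.2. That rule called 0.453% of all tested genes, so none among 9 is what the background gives. Over all genes it called 45 higher (0.37%) and 10 lower (0.0823%), and after rescaling each library to an equal sum (TPM) 29 higher and 59 lower.

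The targeted gene was looked at first. The FPKM of Nrip1 was 4.64, 7.69 and 6.55 in replicates 1, 2 and 3 of WT control, against 25.3 and 22.5 in the 2 libraries labelled skmNrip1-/-. The fitted log2 fold change of 1.94 (adjusted p = 0.0261 from limma) runs against the label of a knockout, and the table does not separate the deleted exon from the rest of the gene. The call was lost with eBayes without the trend (adjusted p = 0.0769 in limma), with the replicate number as a block, and without WT control replicate 3 or either library labelled skmNrip1-/- (adjusted p = 0.114, 0.189 and 0.143 in limma). Over the alternatives the log2 fold change of Nrip1 ran from 1.64 (TPM scale) to 2.09 (without WT control replicate 2). The study's own check of this line measured Nrip1 RNA and RIP140 protein in gastrocnemius and heart, not the muscle sequenced here. The libraries keep the names on their labels, and every direction below rests on those labels. FPKM sums ranged from 969144 to 1288038, and the number of fragments behind them is unknown, so no counting error can be given. Libraries differed by transcript length, WT control replicate 1 the most. The median log2 deviation of that library from the gene means was 0.17 over the shortest of 5 equal groups of genes and -0.11 over the longest. WT control replicate 2 ran the other way, from -0.11 to 0.07, and so did skmNrip1-/- replicate 2, from -0.07 to 0.06. WT control replicate 3 went from 0.016 to -0.0046 and skmNrip1-/- replicate 1 from 0.016 to -0.021.

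The promoters of Pygm, Phka1, Gys1 and Ppp1r3a are shown because these genes lay lowest and highest among the members whose groups did not overlap, with the synthase beside its counterpart. Each window runs from 250 bases before to 50 bases after a RefSeq transcript start on GRCm38.p6, 5′ to 3′. Capitals mark E-boxes (CANNTG), a motif of muscle gene control, and a pattern looser than the MEF2 site of muscle genes (CTA, any 4 bases, TAG).
Pygm (chr19:6384158-6384457, plus strand): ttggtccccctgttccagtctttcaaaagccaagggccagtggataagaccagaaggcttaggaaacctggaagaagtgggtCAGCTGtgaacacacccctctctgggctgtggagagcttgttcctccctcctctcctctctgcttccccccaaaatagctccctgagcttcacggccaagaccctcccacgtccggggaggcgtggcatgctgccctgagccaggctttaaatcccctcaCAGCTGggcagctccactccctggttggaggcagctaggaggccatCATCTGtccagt
Phka1 (chrX:102644197-102644496, minus strand): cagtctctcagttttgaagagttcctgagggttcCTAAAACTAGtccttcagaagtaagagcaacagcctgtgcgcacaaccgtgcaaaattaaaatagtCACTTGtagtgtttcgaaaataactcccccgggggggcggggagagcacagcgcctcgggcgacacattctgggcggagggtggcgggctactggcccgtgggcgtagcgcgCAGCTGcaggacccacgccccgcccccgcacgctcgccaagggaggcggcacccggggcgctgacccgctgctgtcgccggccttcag
Gys1 (chr7:45434589-45434888, plus strand): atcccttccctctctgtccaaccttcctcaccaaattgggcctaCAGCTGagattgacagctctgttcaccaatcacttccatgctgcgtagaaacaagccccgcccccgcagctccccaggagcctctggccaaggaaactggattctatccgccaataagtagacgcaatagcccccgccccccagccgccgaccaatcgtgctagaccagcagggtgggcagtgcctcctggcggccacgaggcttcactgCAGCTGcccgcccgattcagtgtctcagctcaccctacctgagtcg
Ppp1r3a (chr6:14755225-14755524, minus strand): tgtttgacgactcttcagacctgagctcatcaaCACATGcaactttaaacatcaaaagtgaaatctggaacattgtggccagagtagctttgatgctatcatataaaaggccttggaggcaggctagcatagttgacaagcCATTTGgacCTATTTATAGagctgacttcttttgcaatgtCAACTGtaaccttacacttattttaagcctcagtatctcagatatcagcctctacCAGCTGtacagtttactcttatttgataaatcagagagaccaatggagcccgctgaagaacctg

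Promoter windows were found for all 9 members, with 2 for Ugp2 and 1 for each other gene. All 10 windows held an E-box, as did 72.3% of the 32851 windows of the whole table. In the Pygm window, 3 E-boxes were found, 1 of them 8 bases before the start. The loose MEF2-type letters were found in 2 of the 10 windows, those of Phka1 and Ppp1r3a, against 3.69% of all windows. The middle bases were AAAC in Phka1 and TTTA in Ppp1r3a. Only those of Ppp1r3a are all A or T, as in a stricter MEF2 site. The nuclear receptor half-site AGGTCA was found in 0 of the 10 windows, against 16.3% of all windows, and the longer element TCAAGGTCA, which contains it, in 0 against 0.423%. Both strands were searched, and a match is a description of letters, not of binding.

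Among the genes that build glycogen, Ugp2 (chromosome 11, 21321138 to 21371201, GENCODE M21 on GRCm38) makes UDP-glucose. Its FPKM was 287, 360 and 348 in replicates 1, 2 and 3 of WT control, against 334 and 287 in the libraries labelled skmNrip1-/-. The groups overlapped, and the log2 fold change was -0.09 (95% interval -0.44 to 0.25). Gyg (chromosome 3, 20122084 to 20155317) encodes glycogenin, the protein on which a new chain starts. Its FPKM was 239, 222 and 204 in WT control and 211 and 190 in the libraries labelled skmNrip1-/-. These groups also overlapped, with a log2 fold change of -0.15 (95% interval -0.43 to 0.14). It was -0.09 without WT control replicate 1, -0.22 without skmNrip1-/- replicate 1 and -0.07 without skmNrip1-/- replicate 2.

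Gys1 (chromosome 7, 45434844 to 45456619) encodes the muscle glycogen synthase, the main controlled step of storage. Its FPKM was 138, 189 and 193 in replicates 1, 2 and 3 of WT control, against 213 and 194 in the libraries labelled skmNrip1-/-. Both of the latter lay above WT control, replicate 2 only just, and WT control replicate 1 was far below the rest. The log2 fold change was 0.25 (standard error 0.17, 95% interval -0.15 to 0.65, adjusted p = 0.635 from limma). Without WT control replicate 1 it was 0.10, so much of it rests on that library. The transcripts of Gys1 share 310 exonic bases with Ruvbl2 on the opposite strand, whose FPKM lay between 16.6 and 19.4. Gbe1 (chromosome 16, 70313949 to 70569716) encodes the branching enzyme, and its FPKM was 38.3, 46.1 and 49.5 in WT control and 60.5 and 51.7 in the libraries labelled skmNrip1-/-. Again the groups did not overlap, WT control replicate 1 was lowest, and the log2 fold change was 0.33 (standard error 0.14, 95% interval -0.01 to 0.68, adjusted p = 0.440 from limma), or 0.23 without that library.

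Among the genes that break glycogen down, Pygm (chromosome 19, 6384399 to 6398459) encodes the muscle glycogen phosphorylase, the enzyme missing in McArdle disease. It was the most abundant member by far. Its FPKM was 1658, 1508 and 1460 in replicates 1, 2 and 3 of WT control, against 1239 and 1153 in the libraries labelled skmNrip1-/-. The gap between the groups was wider than the spread within either, and the mean was lower by 22.4% (percent change -22.4). The log2 fold change was -0.37 (standard error 0.13, 95% interval -0.67 to -0.06), with an adjusted p of 0.337 (0.0254 unadjusted) in limma.

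Phosphorylase kinase is built of regulatory α and β subunits, the catalytic γ subunit and calmodulin, and Phka1 (chromosome X, 102513975 to 102644246) encodes the muscle α subunit. Its FPKM was 126, 144 and 130 in replicates 1, 2 and 3 of WT control, against 110 and 94.5 in the libraries labelled skmNrip1-/-. The groups did not overlap, and the log2 fold change was -0.38 (standard error 0.12, 95% interval -0.67 to -0.10), with an adjusted p of 0.293 (0.0159 unadjusted) in limma. Phkg1 (chromosome 5, 129863421 to 129898549) encodes the muscle γ subunit, and its FPKM was 296, 259 and 234 in WT control and 262 and 257 in the libraries labelled skmNrip1-/-. Both of the latter lay inside the WT control range, with a log2 fold change of -0.01 (95% interval -0.32 to 0.30). Of its annotated exonic bases, 630 are shared with Sumf2 on the opposite strand, which had an FPKM of only 4.37 to 6.28.

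Of the targeting subunits, Ppp1r3a (chromosome 6, 14713977 to 14755274) encodes the large muscle form, which also anchors at the sarcoplasmic reticulum. Its FPKM was 31.9, 47.3 and 36.6 in replicates 1, 2 and 3 of WT control, against 47.8 and 48.6 in the libraries labelled skmNrip1-/-. WT control replicate 2 came close to these libraries, and the log2 fold change was 0.34 (standard error 0.17, 95% interval -0.07 to 0.75, adjusted p = 0.508 from limma), or 0.21 without WT control replicate 1, the lowest library. Ppp1r3c (chromosome 19, 36731731 to 36736653) encodes PTG, a scaffold found in many tissues. It varied the most of all members, with an FPKM of 140, 87.2 and 78.5 in WT control and 122 and 80.3 in the libraries labelled skmNrip1-/-. Replicate 1 of each group was high, the groups overlapped, and the log2 fold change was 0.01 (95% interval -0.68 to 0.69).

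**Figure D1:**
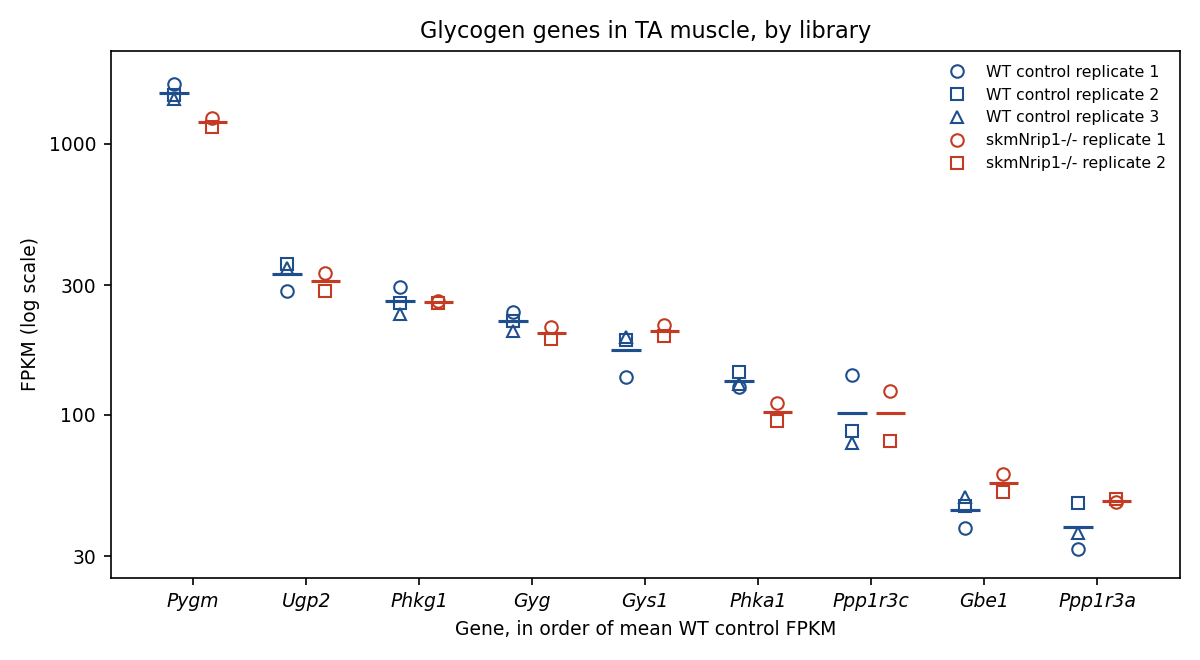
FPKM of the 9 genes on a log axis, in order of their mean in WT control; blue marks are the 3 WT control libraries, red marks the 2 libraries labelled skmNrip1-/-, and bars the group means. The red marks lie below the blue ones for Pygm and Phka1, above them for Gys1, Gbe1 and Ppp1r3a, and the ranges of the colors overlap for the other 4.

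Side by side, 5 of the 9 members had groups that did not overlap, against 30.2% of all genes tested. In 3 of them the libraries labelled skmNrip1-/- were above WT control (15.8% of all genes) and in 2 below (14.4%). At a p of 0.05 or less before adjustment, 2 were lower (5.33% of all genes) and 0 higher (6.57%), where 11.9% of all genes passed in either direction. Without skmNrip1-/- replicate 1 the count of lower members was 1, and without skmNrip1-/- replicate 2 it was 0. The count of higher members was 1 without WT control replicate 2 (Ppp1r3a) and 1 without WT control replicate 3 (Gbe1). The median log2 fold change of the members was -0.01, beside -0.00054 over all genes tested, with 4 members above 0 and 5 below. Among the genes that build glycogen the signs were mixed. Gys1 and Gbe1 had positive fold changes (Gys1 was at -0.05 on the TPM scale), and Ugp2 and Gyg negative ones (log2 -0.09 and -0.15). Among those that break it down, Pygm and Phka1 had negative fold changes, whereas Phkg1 was near 0 at a log2 fold change of -0.01. The 9 genes were proposed with results of these data known, so these counts are a description.

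By level, Pygm was first in all 5 libraries, at a mean FPKM of 1542 ± 103 (SD, n = 3) in WT control, above the next gene, Ugp2, at 331 ± 39.2. The ranges of Ugp2 and Phkg1 overlapped in WT control, as did those of Phkg1 and Gyg, and Gys1 lay below Gyg in every WT control library but above it in both libraries labelled skmNrip1-/-. Phka1 and Ppp1r3c changed places among libraries, and so did Gbe1 and Ppp1r3a. The 9 genes summed to 2953, 2862 and 2733 FPKM in replicates 1, 2 and 3 of WT control, against 2600 and 2356 in the libraries labelled skmNrip1-/-. Without Pygm the sums were 1296, 1354 and 1273 against 1361 and 1203, which overlap. Pygm made up 52.7% to 56.1% of the members' sum in WT control and 47.6% and 48.9% in the libraries labelled skmNrip1-/-.

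The choice of scaling mattered for these values. The 13 mtDNA-encoded genes took 45.4% to 50.7% of the FPKM sum in WT control and 58.6% and 60.9% in the libraries labelled skmNrip1-/-. The 9 genes took 0.258% to 0.282% of the whole sum in WT control, against 0.202% and 0.183%. Of the sum without the mtDNA-encoded genes they took 0.489%, 0.563% and 0.516%, against 0.488% and 0.468%. On the TPM scale, the median over all genes shifted to -0.29. There, the log2 fold change was -0.66 for Pygm (adjusted p = 0.0531 from limma) and -0.68 for Phka1 (adjusted p = 0.0666 from limma). Measured from that median they were -0.37 and -0.39, close to the values on the deposited scale. Gys1 turned to -0.05 on the TPM scale, which is 0.24 above that median. Equal sums over the genes outside mtDNA gave -0.29 for Pygm, -0.31 for Phka1 and 0.33 for Gys1, where the median of all genes was 0.07.

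**Figure D2:**
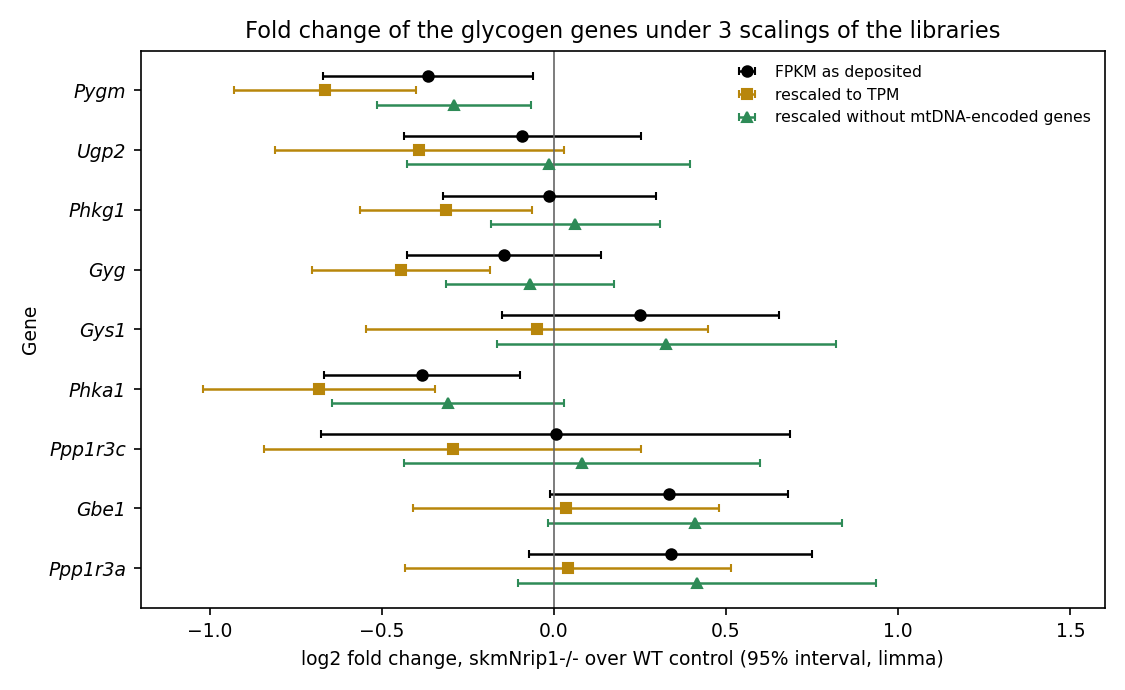
Log2 fold change (libraries labelled skmNrip1-/- over WT control) of each gene with its 95% interval from limma, for FPKM as deposited, rescaled to TPM, and rescaled to equal sums without the mtDNA-encoded genes. On the deposited scale the intervals of Pygm and Phka1 alone leave out 0; on the TPM scale all 9 points lie further left, and that of Gys1 crosses 0 to -0.05.

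Ratios of 2 genes within a library do not depend on the scaling, and 6 were compared. With 10 possible splits of 2 libraries against 3, an exact two-sided permutation test cannot go below 0.2, so no ratio can pass a threshold. Phosphorylase relative to synthase (Pygm to Gys1) was 12.0, 8.00 and 7.58 in replicates 1, 2 and 3 of WT control, against 5.80 and 5.93 in the libraries labelled skmNrip1-/-. The groups did not overlap (exact permutation p = 0.2), and the log2 difference was -0.62. It was -0.41 without WT control replicate 1, the library with the highest ratio. Ugp2 to Gys1 was 2.08, 1.91 and 1.81 against 1.57 and 1.47, and Gyg to Gys1 was 1.73, 1.18 and 1.06 against 0.988 and 0.975, neither overlapping. Without WT control replicate 1 the log2 difference of Gyg to Gys1 was -0.19 instead of -0.40. Branching enzyme to synthase (Gbe1 to Gys1) stayed within a narrow range, 0.277, 0.244 and 0.257 against 0.284 and 0.266, and the groups overlapped.

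Within phosphorylase kinase, the α to γ ratio (Phka1 to Phkg1) was 0.426, 0.555 and 0.553 in replicates 1, 2 and 3 of WT control, against 0.420 and 0.367 in the libraries labelled skmNrip1-/-. WT control replicate 1 lay only just above the latter. Against the β subunit gene Phkb, a pair added after its values were seen, Phka1 was 0.601, 0.663 and 0.632, against 0.495 and 0.481. Phkg1 to Phkb, also added, overlapped between the groups. The ratio of the targeting subunits (Ppp1r3a to Ppp1r3c) was 0.228, 0.543 and 0.466, against 0.392 and 0.606, and overlapped. In all, 4 of the 6 ratios did not overlap, where 30.4% of all pairs of tested genes did not. Since 4 of the 6 share Gys1, they are not separate observations.

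**Figure D3:**
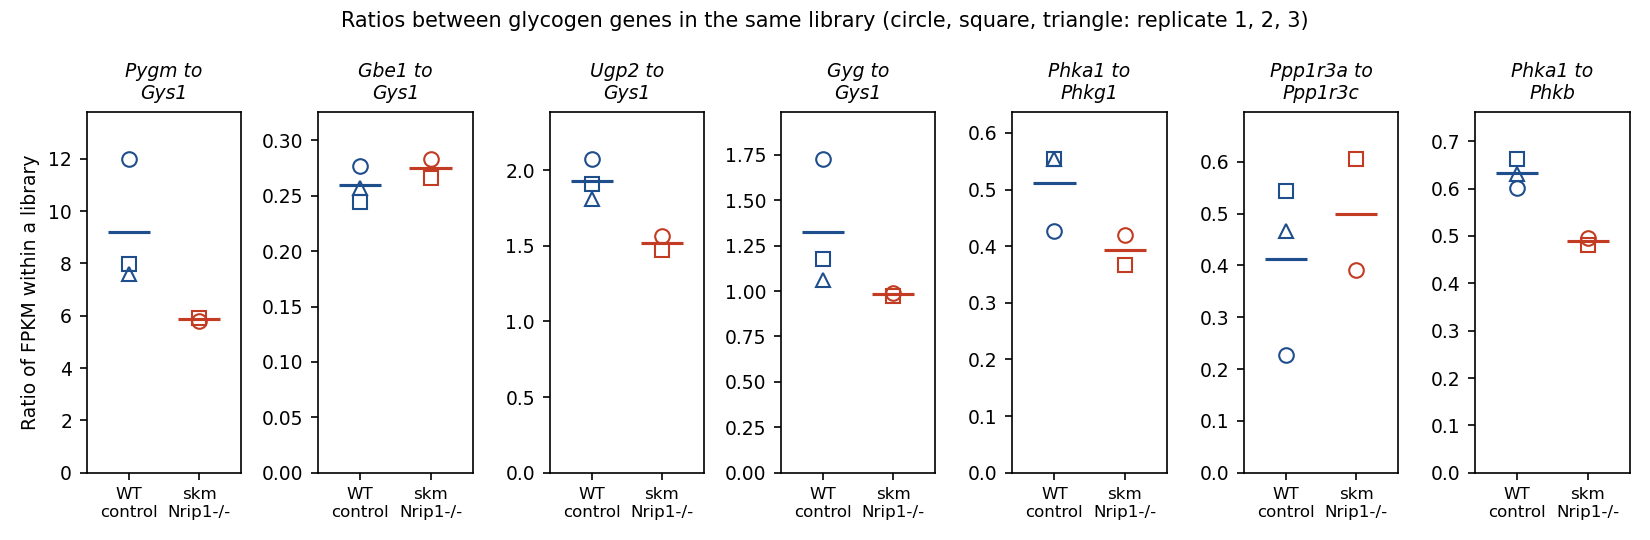
Ratio of the FPKM of 2 genes within each library, on axes that start at 0; blue marks are WT control libraries, red marks libraries labelled skmNrip1-/-, and bars the group means. Pygm to Gys1 falls between 7.58 and 12.0 in WT control and is 5.80 and 5.93 in the others, Phka1 to Phkb between 0.601 and 0.663 against 0.495 and 0.481, whereas Gbe1 to Gys1 and Ppp1r3a to Ppp1r3c overlap.

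The other genes of glycogen metabolism were taken from a list of 32 names, of which 30 were in the table and 27 passed the minimum of 0.5 on the mean FPKM. None was called. At a p of 0.05 or less before adjustment, 1 was higher and 3 were lower, beside 6.57% and 5.33% of all genes. The count of lower genes was 2, 5 and 0 without replicates 1, 2 and 3 of WT control in turn, and 0 and 1 without skmNrip1-/- replicate 1 and 2. The median log2 fold change was -0.08, and 6 genes were above 0 and 21 below.

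Ppp1cc, which encodes the γ catalytic subunit of protein phosphatase 1, had the smallest p of the list. Its FPKM was 88.7, 85.2 and 80.1 in replicates 1, 2 and 3 of WT control, against 124 and 124 in the libraries labelled skmNrip1-/-, far outside the WT control range. The log2 fold change was 0.55 (standard error 0.10, 95% interval 0.31 to 0.79), with an adjusted p of 0.110 (0.00106 unadjusted, and 0.064 to 0.581 adjusted over the alternatives) in limma. The other catalytic subunits had log2 fold changes of -0.16 (Ppp1ca) and 0.04 (Ppp1cb). On the TPM scale that of Ppp1cc was 0.25. In this list of the phosphatase and its control genes, 1 of the 14 tested was higher and 0 lower before adjustment, with Gsk3a, a kinase that phosphorylates glycogen synthase, lowest at -0.17.

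All 10 tested partners in breakdown had negative log2 fold changes, although some, such as Phkb, Pygl and Pygb, were above 0 when libraries were scaled to equal sums without the mtDNA-encoded genes. Of all 12148 genes tested, 6084 had negative ones. The list had a median of -0.23, and in 3 of its genes the unadjusted p was at most 0.05, where 5.33% of all genes were lower at that p. Stbd1, which binds glycogen and brings it to lysosomes, was at 30.3, 20.7 and 29.4 FPKM in replicates 1, 2 and 3 of WT control, against 17.9 and 18.1 in the libraries labelled skmNrip1-/-. On the log2 scale its fold change was -0.55 (adjusted p of 0.308, 0.0192 unadjusted, in limma). Gaa, the lysosomal acid α-glucosidase that degrades glycogen there, was at 63.9, 63.7 and 65.9 FPKM against 54.3 and 51.3, a log2 fold change of -0.29 (adjusted p of 0.314, 0.0203 unadjusted, in limma). Both genes had groups that did not overlap, as did 14.4% of all genes in that direction. Calm2, 1 of the 3 calmodulin genes, was at 143, 113 and 125 FPKM against 90.7 and 105, a log2 fold change of -0.37 by limma (adjusted p of 0.362, 0.0322 unadjusted). The 3 genes encode the same protein, and fragments of similar sequence may be divided among them uncertainly.

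Phkb, the smallest difference in the breakdown list, was at 210, 217 and 205 FPKM in the WT control libraries and at 222 and 196 in the others. Of the phosphoglucomutases, which link glucose 1-phosphate to glycolysis, Pgm1 (ENSMUSG00000025791) was at 260, 222 and 218 FPKM against 205 and 187, a log2 fold change of -0.25 that did not pass (adjusted p = 0.495 from limma). None of the 3 synthesis partners tested had an unadjusted p of 0.05 or less. Pgm2 had a log2 fold change of 0.25 at a WT control mean of only 1.21 FPKM.

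The isozymes of other tissues were at low levels beside the muscle forms. Gys2, the liver synthase, lay between 0.223 and 0.302 FPKM in all 5 libraries and was not tested. Pygl, the liver phosphorylase, lay between 0.669 and 1.03 FPKM and Pygb, the brain form, between 1.53 and 1.95. The liver forms of the kinase subunits, Phka2 and Phkg2, were at mean FPKM of 2.06 and 7.28 in WT control, against 133 and 263 for the muscle forms Phka1 and Phkg1. No unadjusted p among the 4 tested isozyme genes reached 0.05, and their log2 fold changes ran from -0.33 for Phka2 to -0.05 for Pygl. Without skmNrip1-/- replicate 1 that of Phka2 was -0.52, and without skmNrip1-/- replicate 2 it was -0.14.

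**Figure D4:**
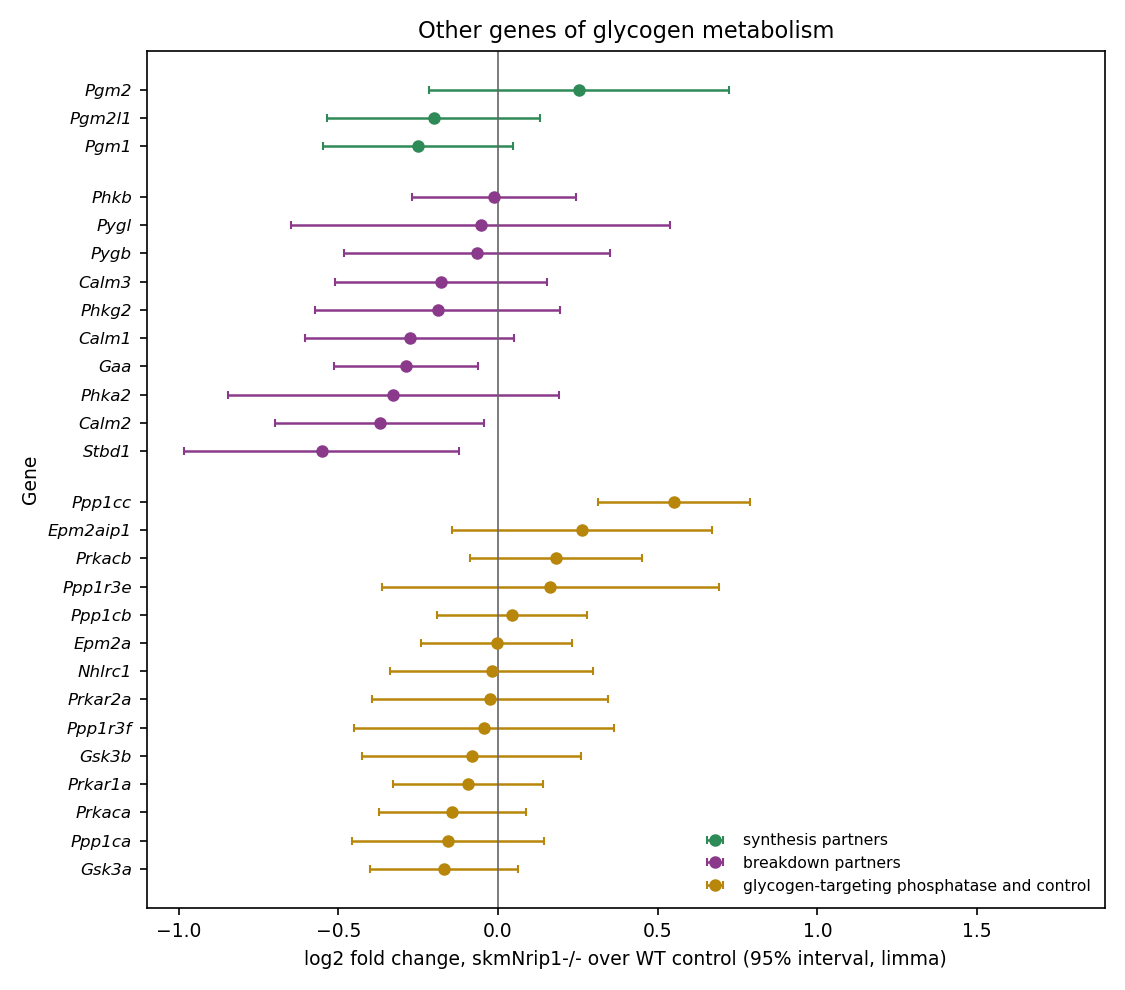
Log2 fold change (libraries labelled skmNrip1-/- over WT control) with 95% interval from limma for the 27 other genes tested, by list. Ppp1cc stands to the right at 0.55, Stbd1 to the left at -0.55, and all 10 breakdown partners lie left of 0, most with intervals that include it; some, such as Phkb, Pygl and Pygb, cross 0 when libraries are scaled without the mtDNA-encoded genes.

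By a rule on likeness alone, the genes closest to Pygm over the 5 libraries were Fut10, Ppp1r7 and Fgd5, whose centred log2 levels differed from those of Pygm by a root mean square of 0.016 to 0.026. Closest to Gys1 were Rbpj, Ap5m1 and Paip2b, at 0.031 to 0.037. These matches describe 5 libraries only, and their function was not looked at.

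All 8 markers of skeletal fibers were present, so the tissue was skeletal muscle, but these markers cannot tell TA from another muscle. Their summed FPKM was 69370 to 93565 in WT control and 68096 and 64754 in the libraries labelled skmNrip1-/-, which only just does not overlap. Of the 8 markers, 2 (Ckm and Acta1) had groups that did not overlap, beside 30.2% of all genes. The median log2 fold change of these markers was -0.18, with 7 of 8 below 0 and none at an unadjusted p of 0.05 or less. Acta1, the skeletal muscle actin, was at -0.40 and Ckm, the muscle creatine kinase, at -0.29, beside -0.37 for Pygm and -0.38 for Phka1. Acta1 and Ckm were the lowest of the 8 markers, and the others ran from -0.21 (Myh4) to 0.05 (Myh1). In whole muscle, fewer cells of a type and less RNA per cell cannot be told apart. Of 5 blood cell markers, 3 were higher at a p of 0.05 or less before adjustment, beside 6.57% of all genes, and none was called. The summed FPKM of the 5 was 511 to 764 in WT control and 996 and 827 in the libraries labelled skmNrip1-/-. Of 7 slow-fiber markers, Myl2 had a log2 fold change of 3.46 and Myl3 one of -1.24, the rest lay between -0.20 and 0.35, and none was called. The summed level was 112 to 316 in WT control, most of it Myl3, and 122 and 124 in the libraries labelled skmNrip1-/-. Markers of adipocytes, Schwann cells, endothelium, macrophages, fibroblasts and hepatocytes had summed levels that overlapped between the groups, and no marker of any list was at 0. The part of fiber content, blood content or fiber type in the values of the glycogen genes was not tested.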

How the data were processed

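Libraries were grouped by the genotype in their labels, and each column was matched to 1 library by its name. The authors ran Salmon 1.10.2 on mm10, with tximport for gene totals, and deposited FPKM for each gene; the formula and annotation release are not given in the sources used here. The table also holds the authors' deposited log2 fold changes and adjusted p-values from DESeq2 1.44.0, which were not used.

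Values were compared with limma 3.58.1 in R 4.3.3 (lmFit and trended eBayes) after log2(FPKM + 0.1), in 1 fit of 5 libraries without covariates. A mean FPKM of at least 0.5 was required, and p-values were adjusted by the Benjamini-Hochberg method. The study's DESeq2 test needs counts and was not run. Ratios were compared with an exact two-sided permutation test (scipy 1.17.1). The limma step was tested on simulated data. Replicates are separate libraries that the labels do not tie to animals, so p-values measure the spread between libraries. GENCODE M21 held 16996 of 17015 gene IDs and gave positions, lengths and overlaps. Whether the counting used strand is not given, so overlapping genes on opposite strands cannot be told apart. Promoters were taken from RefSeq.

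The members and lists were chosen with earlier results of these data known, and 1 gene of the breakdown list is not reported here and was left out of its counts. The named genes are the 9 members, Nrip1, the isozymes of other tissues, the nearest profiles of Pygm and Gys1, and in each list the genes with an unadjusted p of 0.05 or less and the largest and smallest change. Acta1, Ckm, Myh1, Myh4, Ppp1ca, Ppp1cb, Ruvbl2, Sumf2 and the pairs with Phkb were named after their values were seen. Alternatives were the pseudocount, the FPKM minimum, 3 rescalings, eBayes settings, the thresholds, a replicate block, each library left out and, added after seeing the data, removal of each library's lowess trend (span 0.3) on transcript length.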

Additional observations from a re-analysis of the deposited data

How the results depend on the processing

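Under 16 alternatives, 0 members and 0 of the other glycogen genes were called in either direction. Dropping the fold change threshold or asking for an adjusted p of 0.01 could not add a member. The lowest adjusted p of a member in the main fit was 0.293 (Phka1, limma). The adjusted p of Pygm ran from 0.0531 to 0.904 and that of Phka1 from 0.0666 to 0.878, with the lowest on the TPM scale, and the log2 fold changes of Pygm, Phka1, Gyg, Gbe1 and Ppp1r3a kept their sign throughout.

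Rescaling to TPM moved the median of the members to -0.31, reversed Gys1 to -0.048, Ppp1r3c to -0.29 and Pgm2 to -0.024, and gave 4 members and 15 other glycogen genes lower at an unadjusted p of 0.05 or less, where 29.1% of all genes were lower at that p and the median of all genes was -0.29. Equal sums without mtDNA-encoded genes moved the median to 0.063 and reversed Phkg1 to 0.063, Phkb to 0.063, Pygl to 0.015 and Pygb to 0.0063. On that scale 1 member was lower at an unadjusted p of 0.05 or less in limma, where 3.01% of all genes were. The share of the members in the FPKM sum changed by -8.54% instead of -29.4% without the mtDNA-encoded genes. In each case only the scaling was changed. Removing the trend on transcript length reversed no member. Rescaling by the median of ratios left 45 genes called higher and 10 lower, and Gys1 at 0.251, as on the deposited scale. That alternative was therefore nearly no change.

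Whether the replicate number, shared by 2 pairs, ties libraries together is not known. Deviations of same-numbered libraries correlated at 0.065 and 0.095 over genes. The deviations of the 2 libraries labelled skmNrip1-/- mirror each other, so these values cannot decide it. With the replicate number as a block, the median of the members was -0.094, Ppp1r3c reversed to -0.16 and Pygl to 0.073. Nrip1 was no longer called, and all genes called fell from 45 to 18 higher and from 10 to 4 lower. At an unadjusted p of 0.05 or less in limma, 1 member was lower, beside 4.45% of all genes. Without the eBayes trend, 22 and 3 were called.

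Leaving out 1 library at a time, the median of the members ran from -0.20 (without skmNrip1-/- replicate 1) to 0.075 (without WT control replicate 1), and their summed FPKM changed by -17.3% to -8.77%. The share of the FPKM sum changed by -32.8% to -25.9%. The log2 differences ran from -0.74 to -0.41 for Pygm to Gys1, -0.39 to -0.29 for Ugp2 to Gys1, -0.54 to -0.19 for Gyg to Gys1, 0.04 to 0.13 for Gbe1 to Gys1, -0.50 to -0.27 for Phka1 to Phkg1 and -0.04 to 0.65 for Ppp1r3a to Ppp1r3c. The log2 fold change ran from -0.20 to 0.019 for Ugp2, -0.094 to 0.075 for Phkg1, -0.30 to 0.31 for Ppp1r3c, -0.21 to 0.073 for Pygl, -0.23 to 0.10 for Pygb, -0.22 to -0.068 for Gyg, -0.52 to -0.14 for Phka2, -0.32 to -0.078 for Phkg2 and -0.10 to 0.077 for Phkb. Over all genes 6 to 55 were called higher and 3 to 16 lower. A lone library in a group was assumed to vary like the others. The causes were not tested.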
